A study of Mus musculus with 24 samples.

Results

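The transcriptional response to loss of all RING1A and RING1B, by removing RING1B from cells that already lacked RING1A, was measured in 1 mouse embryonic stem cell (ESC) line, PRC1CKO, as 3 libraries from cells given 4-hydroxytamoxifen (OHT) against 3 from untreated cells. These 6 libraries were chosen by line and treatment from the labels, and they are 6 of the 12 RNA libraries and of the 24 libraries in the series. The series holds the same design in a second line, PRC1CPM, in which OHT leaves a catalytically inactive RING1B in place, and matched genomic DNA libraries for calibration. PRC1CKO cells are a single clone (B9) of E14 ESCs with the genotype Ring1a-/-; Ring1bfl/fl; Rosa26::ERT2-Cre, in which loxP sites flank exon 2 of Ring1b, its first coding exon. Both groups therefore lacked RING1A, through a deletion of exons 1 to 3 of Ring1a, and carried the Cre fused to the ligand-binding domain of the oestrogen receptor at the Rosa26 locus. The OHT group received 800 nM OHT for 72 h. Cells were grown on gelatin in serum with leukaemia inhibitory factor, and a fixed share of Drosophila SG4 cells was mixed in before RNA and DNA extraction. No library of OHT-treated cells that kept RING1B was part of the comparison, so effects of OHT or of active Cre and effects of RING1B loss cannot be told apart. The study's methods call the replicates biological without saying whether they were separate cultures, so p-values measure the spread between these libraries.

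Polycomb repressive complex 1 (PRC1) is built around RING1A or RING1B, the E3 ligases that ubiquitylate histone H2A at lysine 119. Canonical complexes carry a CBX subunit that reads the H3K27 methylation laid down by PRC2, and variant complexes carry RYBP or YAF2 instead. In ESCs both kinds bind CpG-rich gene starts, canonical complexes most densely at genes of developmental regulators that are held at low expression until the cells differentiate and variant complexes more broadly.

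Reads on gene bodies, introns included, numbered 16755349, 22893245 and 20998133 in the untreated libraries and 24439897, 21042163 and 24004077 in the OHT libraries. Each value below is a normalised read count, which is the number of reads divided by 1 size factor per library derived from the Drosophila spike-in. Untreated replicate 1 stood apart. Its size factor was 0.671, against 1.08 to 1.30 in the other 5 libraries, and its normalised read counts summed to 24958331, against 17618069 and 17755844 in untreated replicates 2 and 3 and 22092158, 19476946 and 20939764 in the OHT libraries. Where leaving it out moved a count by a large factor, the count without it is also given. Transcripts with 10 or more reads numbered 15647, 15885 and 15783 before OHT and 16514, 16333 and 16373 after it, so that more transcripts were detected in each OHT library than in any untreated one.

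The targeted genes were examined first. Ring1, the gene of RING1A (NM_009066, chr17:34020792-34024680), had normalised read counts of 313, 204 and 166 in the untreated libraries and 281, 251 and 229 after OHT (log2 change 0.20, SE 0.30, adjusted p = 0.75). Rnf2, the gene of RING1B (NM_011277, chr1:151469406-151500823), had 1756, 1436 and 1385 in the untreated libraries and 1489, 1565 and 1585 after OHT (log2 change 0.027, SE 0.21, adjusted p = 0.963). The groups overlapped for both genes. These counts run over the whole gene body, with introns and the exons that are not deleted, so they check neither deletion.

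The cells carried ESC markers in both groups. Pou5f1, which encodes the pluripotency factor OCT4, had normalised read counts of 6225, 3545 and 4433 in the untreated libraries and 3330.1, 2991 and 3058 after OHT and was not called (log2 change -0.56, SE 0.23, adjusted p = 0.0778). It was called lower when untreated replicate 2 was left out. Nanog had 6313, 5332 and 4332 in the untreated libraries and 4165, 5021 and 4440.2 after OHT, with overlapping groups and a log2 change of -0.22 that was not called. Sox2, a partner of OCT4, had 8858, 6164 and 6431 in the untreated libraries and 3398, 4013 and 4065 after OHT and fell (log2 change -0.89, SE 0.20, adjusted p = 0.00051). Esrrb, Zfp42, Klf4 and Tfcp2l1 were not called, with log2 changes of -0.18, -0.12, 0.063 and -0.39.

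Which genes moved, and from what starting level, was asked across 16940 transcripts that had at least 10 reads in at least 3 of the 12 RNA libraries. The difference of group means on the log2(normalised read count + 1) scale was tested with limma, with p-values adjusted by Benjamini-Hochberg, and calls needed an adjusted p under 0.05 together with a change above 1.5-fold. After OHT, 2787 transcripts were called higher (16.5% of those tested) and 524 lower (3.09%), and 84.2% of all calls were increases. In bulk RNA, a change in the share of cells of a type and a change in RNA per cell cannot be told apart. The increases were larger than the decreases. Transcripts called higher had a median log2 change of 1.66, with 1009 above 4-fold and 119 above 16-fold, and those called lower had a median of -1.01, with 45 beyond 4-fold and 1 beyond 16-fold. For 95.6% of the transcripts called higher and 93.5% of those called lower, the 3 OHT values and the 3 untreated values did not overlap. These transcripts were selected by their calls, which favour separated groups, and the share over all transcripts tested is not given. The 2 sets also started from different levels. The median untreated level was 1.66 normalised reads per kb of gene body for transcripts called higher and 30.2 for those called lower, against 19.6 for all transcripts tested. The median gene body was 46.6 kb for transcripts called higher, 19.7 kb for those called lower and 23.1 kb for all tested, an order that was not kept in every level class.

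The balance of rises and falls depended on the scale. With TMM factors, which set most genes to no change, in place of the spike-in, 2845 transcripts were called higher and 1133 lower, so that 71.5% of the calls were increases. Of the calls on the spike-in scale, 2650 of those higher and 523 of those lower were also made on the TMM scale. The median log2 change of all transcripts tested was 0.12 with the spike-in and -0.0019 with TMM. Without untreated replicate 1 it was 0.29, with 3729 transcripts called higher and 326 lower, and without untreated replicate 2 it was 0.018. Leaving out OHT replicate 2 gave 329 called lower. The OHT effect differed between PRC1CKO and PRC1CPM for 4 transcripts (0.0236% of 16940), among them both transcripts of Grb10. This was by a limma test of the difference itself at an adjusted p under 0.05. Without adjustment 497 transcripts (2.93%) had a p under 0.05.

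**Figure D1:**
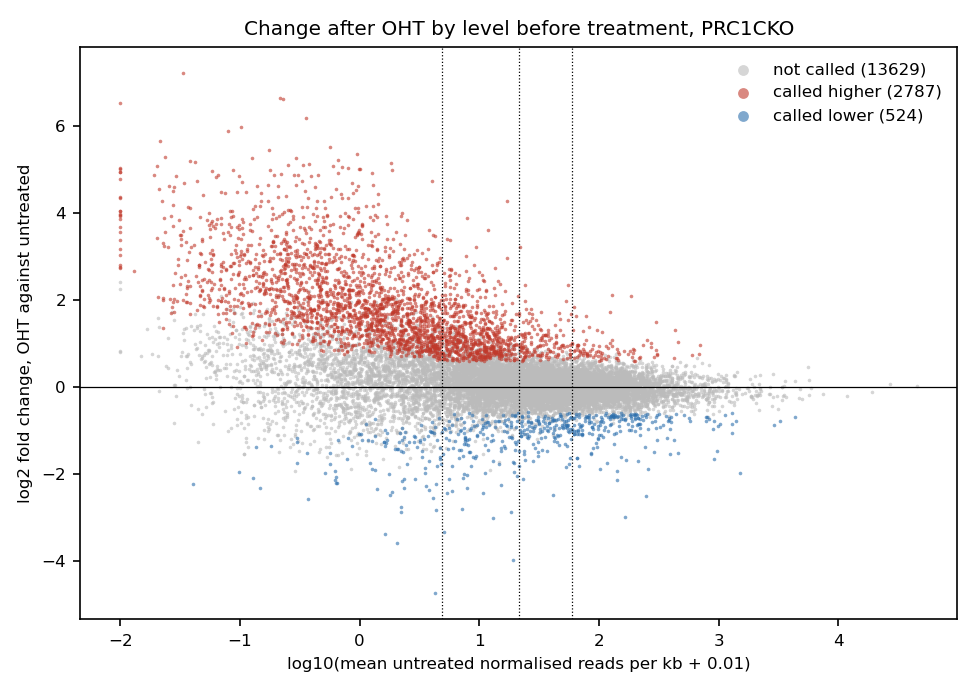
Log2 change after OHT of each transcript tested (vertical axis) against log10 of its mean untreated normalised reads per kb of gene body plus 0.01 (horizontal axis), for the 3 OHT against the 3 untreated PRC1CKO libraries, with dotted lines at the level class borders. Points called higher (2787) lie mainly at the left, at low untreated levels, and points called lower (524) lie mainly towards the right.

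4 genes show the ends of this range. They are the largest riser among silent genes, the largest riser and faller among highly expressed genes, and the largest faller among pluripotency factors. These genes, and the largest changes of each class and list below, were taken only from genes with separated groups. Their separation is therefore no result. The start windows of 3 of them, Igf2, Kis2 and Klf2, 250 bases before and 50 bases after the annotated start, were read from GRCm38/mm10 on the strand of the gene and are printed 5′ to 3′ with each CG dinucleotide in capitals, because CpG-rich starts are the places PRC1 is known for. CG reads the same on both strands. Over the 20630 windows of the table the median was 15 CG, and 97.3% held at least 1. The Igf2 window (chr7:142660986-142661285, minus strand, 18 CG, a number reached by 44.4% of all windows), the Kis2 window (chrX:52744544-52744843, minus strand, 15 CG, a number reached by 51.7% of all windows) and the Klf2 window (chr8:72318812-72319111, plus strand, 32 CG, a number reached by 14.4% of all windows) ran as follows.
Igf2: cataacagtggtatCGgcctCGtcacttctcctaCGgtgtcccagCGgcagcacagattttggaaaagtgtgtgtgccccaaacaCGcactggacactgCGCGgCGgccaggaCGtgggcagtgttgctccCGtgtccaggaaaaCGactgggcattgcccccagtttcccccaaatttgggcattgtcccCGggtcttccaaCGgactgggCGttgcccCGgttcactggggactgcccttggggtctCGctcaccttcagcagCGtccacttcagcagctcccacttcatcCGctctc
Kis2: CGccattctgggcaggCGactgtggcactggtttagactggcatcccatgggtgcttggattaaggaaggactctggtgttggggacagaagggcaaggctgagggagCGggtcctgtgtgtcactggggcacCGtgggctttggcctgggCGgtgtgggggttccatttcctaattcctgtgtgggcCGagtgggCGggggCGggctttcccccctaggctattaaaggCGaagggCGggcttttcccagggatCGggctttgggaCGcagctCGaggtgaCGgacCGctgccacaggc
Klf2: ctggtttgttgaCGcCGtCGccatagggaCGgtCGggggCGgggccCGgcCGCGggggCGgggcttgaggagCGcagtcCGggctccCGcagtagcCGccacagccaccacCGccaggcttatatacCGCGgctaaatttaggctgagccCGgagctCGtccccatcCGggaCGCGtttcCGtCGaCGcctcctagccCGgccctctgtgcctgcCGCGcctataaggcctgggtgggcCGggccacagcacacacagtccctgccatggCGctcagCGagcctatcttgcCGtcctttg

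Ebf2, a transcription factor of neuronal and brown fat development, had normalised read counts of 5.96, 6.16 and 1.69 in the untreated libraries and 934, 680.3 and 692 after OHT (log2 change 7.22, SE 0.38, adjusted p = 2.09e-20). Igf2, the imprinted insulin-like growth factor 2, had 2535, 797 and 611 in the untreated libraries and 7393, 3935 and 3413 after OHT (log2 change 2.11, SE 0.35, adjusted p = 3.1e-06). The 2 groups were fully separated for both, as the choice of genes required. Ebf2 had close to no reads in every untreated library. Kis2, an X-linked noncoding transcript, had 411, 367 and 219 in the untreated libraries and 29.8, 40.7 and 49.7 after OHT (log2 change -2.999, SE 0.35, adjusted p = 1.32e-09). Klf2, a Krüppel-like factor of the naive pluripotency network, had 3171, 1824 and 2558 in the untreated libraries and 1012, 718 and 965 after OHT (log2 change -1.47, SE 0.23, adjusted p = 8.18e-07). All 3 OHT values of both genes lay below all 3 untreated values, which the choice also required. The lowest untreated Klf2 value was that of replicate 2.

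To describe the response by level before treatment, the 20633 transcripts of the table were divided into 5 classes. Silent transcripts had fewer than 10 reads in each untreated library, and the rest were divided into 4 equal classes by mean untreated reads per kb. All transcripts of a class, tested or not, are the denominator, since a silent gene could pass the filter mainly by rising. The share called higher was 7.89% in the silent class, 40.03% in the low class, 14.4% in the lower middle, 3.41% in the upper middle and 2.21% in the high class. The share called lower was 0.0692%, 2.45%, 2.99%, 2.85% and 4.49%, lowest in the silent and highest in the high class. Of all transcripts called higher, 58.5% came from the low class and 12.3% from the silent class, and of all called lower 34.9% came from the high class. The level and the change share the untreated libraries, so the classes were also drawn from the 3 untreated PRC1CPM libraries, which were not in the contrast. The shares called higher were then 6.45%, 39.0%, 15.7%, 3.88% and 2.29%, and the shares called lower 0.0494%, 2.15%, 3.28%, 2.53% and 4.63%.

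**Figure D2:**
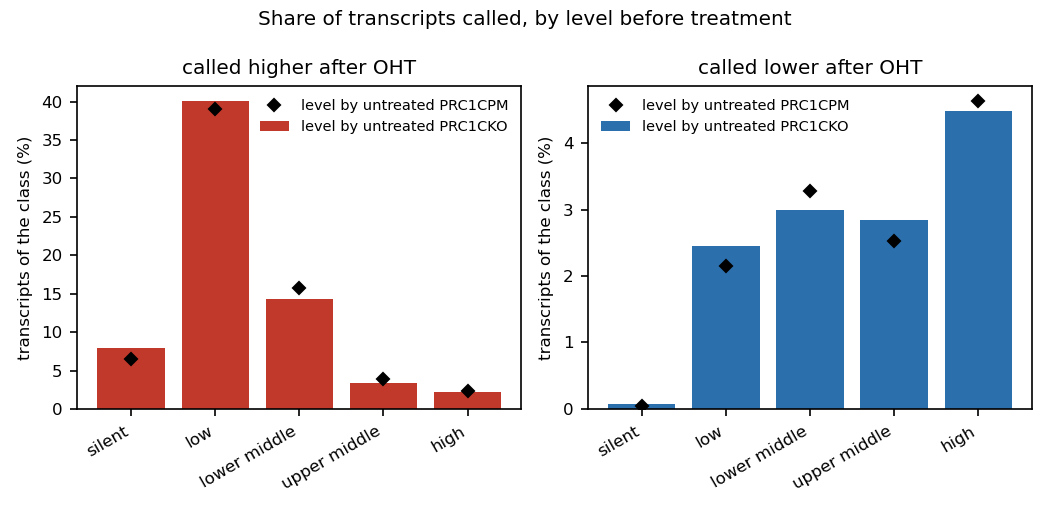
Percent of transcripts called higher and called lower after OHT (vertical axis) in each of the 5 untreated level classes (horizontal axis), as bars for classes drawn from the untreated PRC1CKO libraries and diamonds for classes drawn from the untreated PRC1CPM libraries. Calls higher peak in the low class, at 40.03% and 39.0%, and calls lower in the high class, at 4.49% and 4.63%.

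The silent class held 4334 transcripts, of which 342 were called higher and 3 lower, and only 706 passed the filter on reads. Among members of the lists used here, 59 of the 94 silent developmental regulators were called higher, against 25 of 110 silent neural and surface genes, 5 of 22 silent signalling genes and 2 of 539 silent members of the olfactory, vomeronasal, defensin and keratin-associated families. Over all silent symbols the share was 7.47%. Hoxd11, a posterior Hox gene, had normalised read counts of 0, 4.62 and 0 in the untreated libraries and 189, 166 and 175 after OHT (log2 change 6.64, SE 0.57, adjusted p = 1.71e-13). Hoxa11, its paralogue of the HoxA cluster, had 0, 0 and 0 in the untreated libraries and 120.2, 65.7 and 96.8 after OHT. Both genes had close to no reads in every untreated library and were far above that in every OHT library. Because Hoxa11 had no read in any untreated library, its change is a bound, at least 99.3-fold higher when 3 reads over the group are taken as the floor. The 3 silent transcripts called lower, Serpinb7, Wfdc15a and 1810063I02Rik, had 10, 20 and 23 reads in the untreated libraries together and 0, 2 and 5 in the OHT libraries. Of transcripts called higher, 70 would not have passed the filter without the 3 PRC1CKO OHT libraries. The libraries left for that count include those of OHT-treated PRC1CPM cells.

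The low class ran from 0.0048 to 4.89 normalised reads per kb and was where the typical gene shifted. Its median log2 change was 0.70, and 74.8% of its 4074 transcripts had a positive change. The class median rose by 0.90, 0.61 and 0.68 against the untreated mean in the 3 OHT libraries (SD 0.15, n = 3), with an exact permutation p of 0.1, two-sided, the smallest that 3 libraries against 3 allow. Of its transcripts 1631 were called higher, with a median log2 change of 1.79, and these went from a median of 0.984 to 3.63 normalised reads per kb. Pax3, a regulator of neural crest and muscle progenitors, had 8.94, 9.23 and 8.46 in the untreated libraries and 661, 549 and 644 after OHT (log2 change 5.97, SE 0.39, adjusted p = 9.22e-18). The neuronal factor Ebf3 rose by 5.44 and Nxph1, a secreted ligand of neurexins, by 5.28 on the log2 scale. In this class 50 of 59 developmental regulators, 30 of 47 signalling genes and 130 of 218 neural and surface genes were called higher, against 38.7% of all low-class symbols. The median gene body was 89.7 kb for transcripts called higher and 29.1 kb for those of the class not called. In the lower middle, upper middle and high classes transcripts called higher had shorter gene bodies than those not called. These were 27.2 against 31.0 kb, 13.0 against 24.3 kb and 7.82 against 12.2 kb. Levels are per kb, so at equal level a longer gene holds more reads. The part of read number in these lengths was not tested. The 100 transcripts called lower included Cysltr1, a leukotriene receptor, with 61.1, 50.02 and 20.3 in the untreated libraries and 3.62, 3.7 and 1.74 after OHT, and 9430069I07Rik, with 38.7, 43.9 and 29.6 in the untreated libraries and 0, 1.85 and 0 after OHT. Their log2 changes were -3.38 and -4.74, and neither gene's groups overlapped, as the choice of genes required. The share called lower was 1.62%, 1.57% and 1.60% without untreated replicate 1, untreated replicate 3 and OHT replicate 2.

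The lower middle class, up to 21.5 normalised reads per kb, had 585 transcripts called higher and 122 lower, with a median log2 change of 0.17 over the class and an exact permutation p of 0.4. This median was 0.34 without untreated replicate 1, 0.081 without untreated replicate 2 or 3 and 0.050 on the TMM scale. Dio3, the imprinted deiodinase that inactivates thyroid hormone, had 41.7, 22.3 and 30.4 in the untreated libraries and 580.3, 644 and 598 after OHT (log2 change 4.27, SE 0.33, adjusted p = 6.56e-15). Esx1, an X-linked homeobox gene of the placenta, rose by 3.60 and Paqr9 by 3.89 on the log2 scale. Every OHT value of the 3 genes lay above every untreated one, as the choice of genes required. The noncoding RNA 6330410L21Rik had 137, 224 and 216 in the untreated libraries and 9.04, 8.33 and 17.4 after OHT and cardiac actin Actc1 44.7, 15.4 and 23.7 in the untreated libraries and 5.42, 1.85 and 0 after OHT, with log2 changes of -3.98 and -3.33. Developmental regulators were called higher in 22 of 41 and signalling genes in 16 of 30, against 14.6% of all symbols in it. The share of the class called higher was 23.4% without untreated replicate 1, 7.80% without untreated replicate 3 and 8.49% without OHT replicate 1, and the share called lower was 1.96% without untreated replicate 1 and 1.84% without OHT replicate 2.

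The upper middle class, up to 59.9 normalised reads per kb, had 139 transcripts called higher and 116 lower, with median log2 changes of 0.97 and -0.94. Tex101, a cell surface protein of germ cells, had 95.3, 93.9 and 74.4 in the untreated libraries and 788, 842 and 839 after OHT (log2 change 3.22, SE 0.27, adjusted p = 4.27e-14). Cdkn1c, the imprinted gene of the CDK inhibitor p57, had 235, 82.3 and 132 in the untreated libraries and 859.6, 711 and 557 after OHT and rose by 2.34, and Cebpa, a regulator of fat and myeloid cells, rose by 2.33 on the log2 scale. Actn3, the actinin of fast muscle fibres, had 898, 512 and 651 in the untreated libraries and 139, 95.3 and 125 after OHT, a log2 change of -2.49. The noncoding 2610037D02Rik had a log2 change of -2.13. The groups of all 5 genes were separated, as the choice of genes required. Of 17 signalling genes of this class 5 were called lower and 2 higher, against 2.79% and 3.46% of all its symbols. The share of the class called higher was 8.52% without untreated replicate 1, 2.21% and 1.91% without untreated replicates 2 and 3 and 2.04% without OHT replicate 1, and its median log2 change of 0.026 turned to -0.079, -0.051 and -0.020 without the last 3 of these. The share called lower was 1.87% without OHT replicate 2. Calls lower outnumbered calls higher in this class on the TMM scale, at 6.92% against 3.41%, and without untreated replicate 2, untreated replicate 3 or OHT replicate 1, at 3.85%, 2.31% and 2.26% called lower.

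The high class began at 59.9 normalised reads per kb and had more calls lower than higher, at 183 against 90 of 4075 transcripts. Changes here were small, with medians of 0.82 for calls higher and -0.82 for calls lower. Beside Igf2, the largest rises were of the surface glycoproteins Tpbg, by 1.84, and Cd24a, by 1.71 on the log2 scale, and beside Kis2 the septin gene Sept1, with 1241, 801 and 938 in the untreated libraries and 177, 145 and 194 after OHT, had a log2 change of -2.51. Tpbg had 414, 249 and 209 in the untreated libraries and 1139.9, 1052 and 833 after OHT. Cd24a had 825, 544 and 531 in the untreated libraries and 2399, 2019 and 1741 after OHT. The groups of both did not overlap, as the choice of genes required. Calls lower in this class included 9 of 36 genes of the pluripotency and early lineage lists, 7 of 17 signalling genes and 27 of 329 genes of growth and metabolism, against 4.41% of all high-class symbols. Without untreated replicate 1 the order of the class reversed, with 5.79% called higher, 2.45% called lower and a median log2 change of 0.15 in place of -0.031. The share called higher was 1.35% and 0.785% without untreated replicates 2 and 3 and 1.15% without OHT replicate 1, and the share called lower was 2.72% without OHT replicate 2.

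In the silent, low and lower middle classes the share called higher climbed with the CG content of the start window. Among silent transcripts, the share called higher was 2.4% for windows with 0 to 2 CG, 5.24% with 3 to 9, 25.7% with 10 to 19 and 44.5% with 20 or more. In the low class these shares were 22.2%, 25.0%, 45.2% and 62.8%, and in the lower middle class 6.64%, 10.2%, 13.8% and 17.4%. In the upper middle and high classes the share called higher had no such order, at 2.60%, 4.66%, 2.28% and 1.86% in the high class. The share called lower had no such order over all levels, at 2.05%, 3.20%, 2.80% and 2.11% from the fewest to the most CG. In the low class 5.16% of transcripts with 0 to 2 CG and 0.520% of those with 20 or more were called lower, and in the high class 7.79% and 3.80%. Over all levels the share called higher was 6.48%, 11.6%, 15.7% and 15.6% from the fewest to the most CG. Among transcripts tested the median window held 18 CG for those called higher, 13 for those called lower and 19 for those not called. CG content is related to gene length and gene kind, whose parts in this were not tested.

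**Figure D3:**
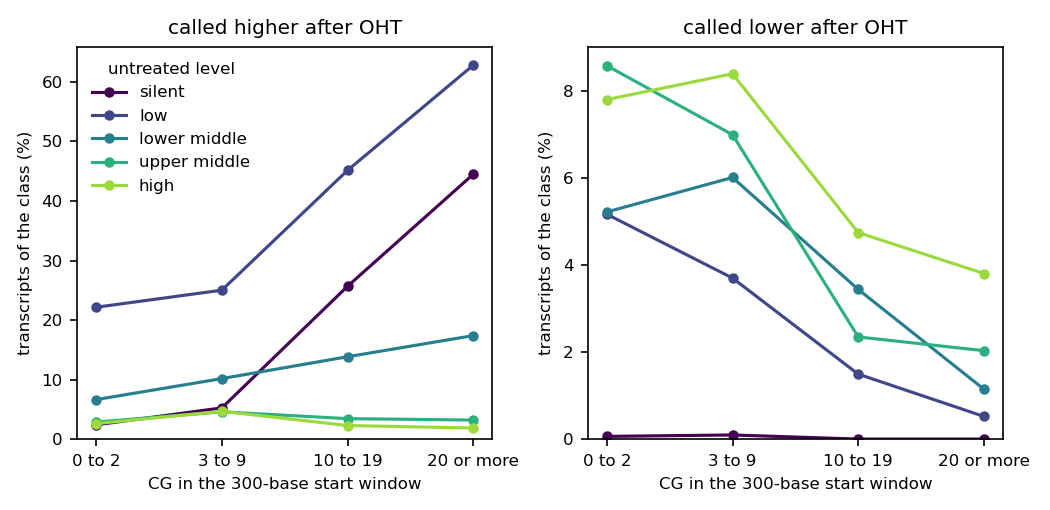
Percent of transcripts called higher and called lower after OHT (vertical axes) by number of CG in the 300-base start window (horizontal axis), with 1 line for each untreated level class. The silent and low lines climb from 2.40% to 44.5% and from 22.2% to 62.8% called higher, while the upper middle and high lines stay under 5%.

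The kinds of genes behind these counts were read from 54 lists, each with 1 transcript per symbol. Beside them stands the same over all 19409 symbols, of which 13.0% were called higher and 2.49% lower, with a median log2 change of 0.078. A list's median covers all its members in the table, tested or not.

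Several transcription factor families of development rose in large shares. Hox genes, which pattern the body axis, were called higher in 31 of 39 members with none lower, at a list median of 3.18, and the median level went from 1.41 to 15.1 normalised reads per kb. The LIM, Nkx, Dlx, Msx, Irx and sine oculis homeobox genes, counted with the opposite-strand RNA Nkx2-2os, had 39 of 48 called higher (median 3.03), Pax genes 8 of 9 (median 3.24), Gata genes 5 of 6 (2.02) and T-box genes 10 of 17 (1.88), and none of these lists had a member called lower. Of these members 37, 46, 8, 6 and 15 had passed the filter on reads. Lhx8, a LIM homeobox factor of forebrain cholinergic neurons, had 0, 0 and 5.07 in the untreated libraries and 105, 107 and 108 after OHT (log2 change 5.88, SE 0.56, adjusted p = 4.98e-12). Gata3, a regulator of T cells and trophoblast, had 41.7, 23.1 and 15.2 in the untreated libraries and 300.1, 218 and 219.8 after OHT. Both were separated between groups, as the choice of genes required, and the log2 change of Gata3 was 3.26. Tbx18, a T-box factor of heart and ureter mesenchyme, rose by 4.87. Neural bHLH genes rose in 10 of 20, among them Olig2 of the oligodendrocyte and motor neuron lineage (log2 change 4.35), and mesoderm bHLH and Snail genes in 8 of 18. Hand2, a heart and limb regulator, had 0, 0 and 0 in the untreated libraries and 38, 26.8 and 26.2 after OHT, at least 31.9-fold higher against a floor of 3 reads.

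Forkhead and Sox genes had calls in both directions. Forkhead genes had 15 of 44 called higher and 1 lower (median 0.73), and Sox genes 7 of 19 and 2 lower (median 0.79), with 10 Sox genes higher by DESeq2 and 9 by edgeR. Foxf2, a factor of gut and palate mesenchyme, rose by 4.87 on the log2 scale, while Foxr2 had 56.6, 54.6 and 60.9 in the untreated libraries and 5.42, 5.55 and 22.7 after OHT, a log2 change of -2.55. Sox9, a regulator of cartilage and testis, had 2.98, 4.62 and 8.46 in the untreated libraries and 103, 57.4 and 55 after OHT (log2 change 3.55, SE 0.48, adjusted p = 4.29e-08). Sox12 had 1207, 679.5 and 748 in the untreated libraries and 450.2, 424 and 387 after OHT and a log2 change of -1.02, and Sox2, described above, was the other Sox gene called lower. Values of these 4 genes did not overlap between groups, as their choice required.

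**Figure D4:**
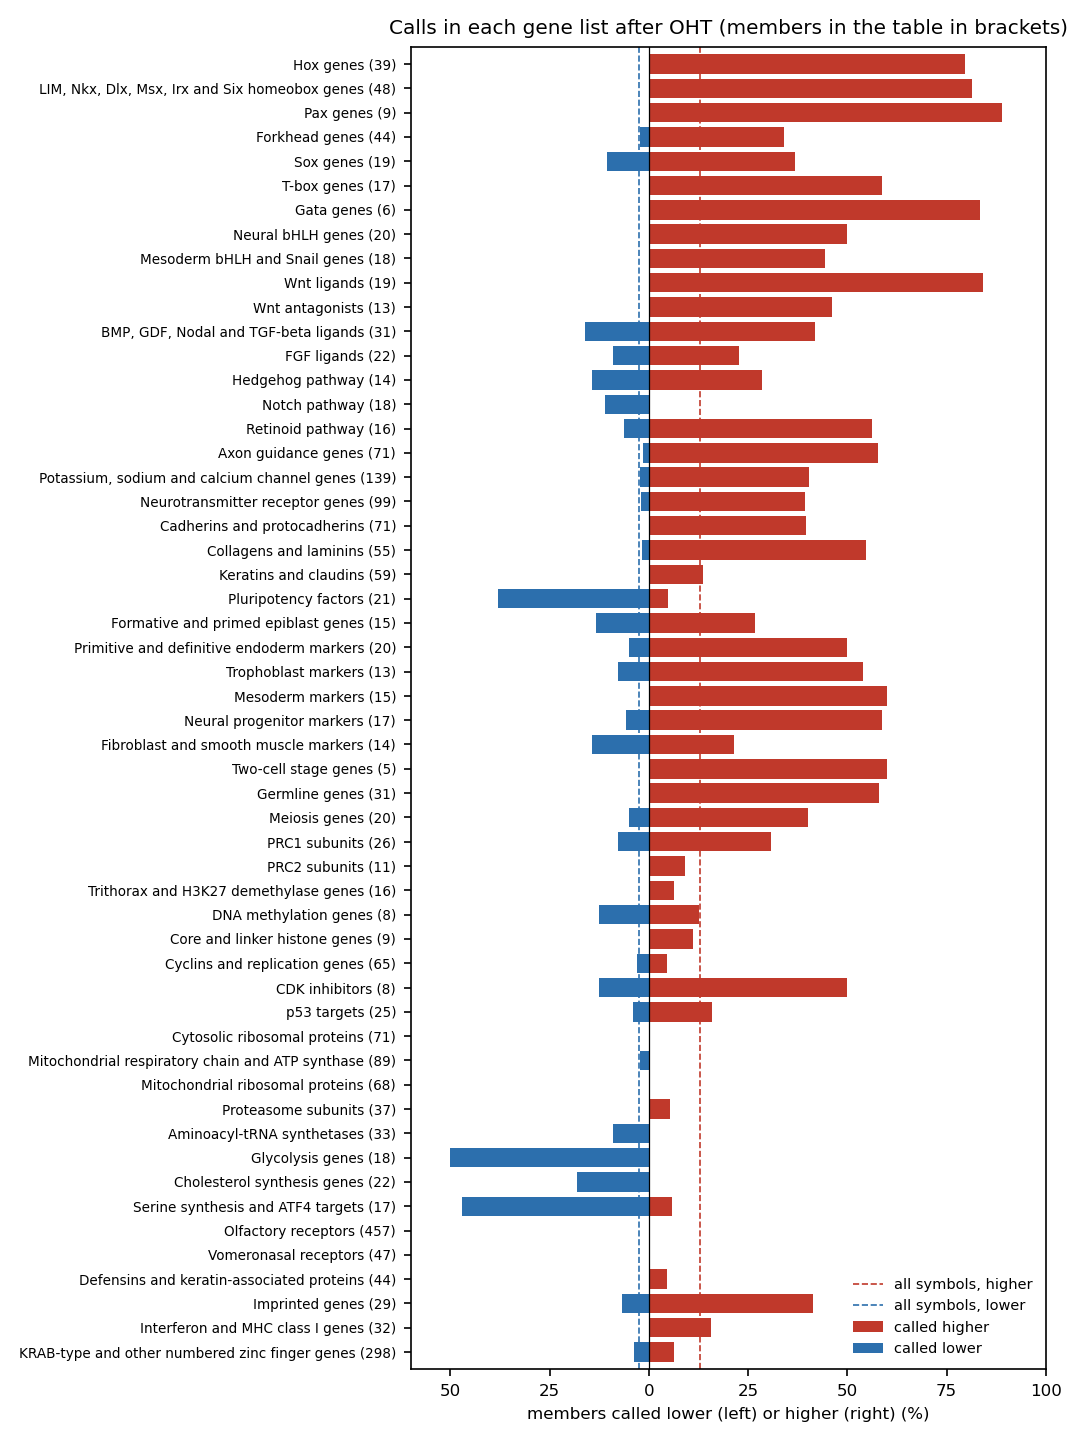
Percent of members called higher (bars to the right) and called lower (bars to the left) after OHT in each gene list (vertical axis, members in the table in brackets), with dashed lines at the shares of all symbols, 13.0% and 2.49%. The bars of the Pax, Wnt ligand, Gata, homeobox and Hox lists reach furthest right, and those of the glycolysis, ATF4 and pluripotency lists furthest left.

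Signalling pathways differed in their counts. Wnt ligands were called higher in 16 of 19 with none lower (median 2.00), and Wnt antagonists in 6 of 13 with none lower. On the TMM scale or with the replicate block 1 antagonist was lower. Wnt9b, a ligand of kidney induction, had 2.98, 9.23 and 3.38 in the untreated libraries and 162, 131 and 75 after OHT (log2 change 4.39, SE 0.45, adjusted p = 3.05e-11). The secreted Wnt antagonist Dkk2 rose by 3.83. BMP, GDF, Nodal and TGF-beta ligands went both ways, with 13 of 31 higher and 5 lower. Gdf10 rose by 4.62, and Lefty1, an antagonist of Nodal, had 3679, 3471 and 2143 in the untreated libraries and 983, 866 and 1028 after OHT (log2 change -1.65, SE 0.22, adjusted p = 1.95e-08). Gdf15, a stress-induced cytokine, had a log2 change of -1.76. Among FGF ligands 5 of 22 were called higher, Fgf9 by 3.28, and 2 lower, among them Fgf4, the autocrine FGF of ESCs, with 6156, 3617 and 5062 in the untreated libraries and 2055, 2209 and 2748 after OHT and a log2 change of -1.06.

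In the Hedgehog pathway 4 of 14 genes were called higher and 2 lower. The ligand gene Dhh rose by 2.57 on the log2 scale. Ptch1, the Hedgehog receptor and a target of the pathway, had 6696, 6807 and 5517 in the untreated libraries and 1876, 1794 and 1958 after OHT (log2 change -1.75, SE 0.20, adjusted p = 8.79e-10), and Gli1, the effector that is also a target, had 1245, 1181 and 1326 in the untreated libraries and 475, 536 and 680.4 after OHT (log2 change -1.16, SE 0.23, adjusted p = 0.000115). For both genes all 3 OHT values were below all 3 untreated ones, as the rule that chose Ptch1 required. The Notch pathway had none of 18 called higher and 2 lower by limma, Notch4 with a log2 change of -1.17. Without untreated replicate 1 or with the replicate block the counts were 4 and 2, and by edgeR 1 and 2. Retinoid genes rose in 9 of 16, led by Aldh1a2, which makes retinoic acid, with 71.5, 50.8 and 55.8 in the untreated libraries and 362, 271 and 332 after OHT (log2 change 2.42), while the receptor gene Rara had a log2 change of -0.84 and was the 1 called lower. FGF ligands had 8 higher without untreated replicate 1 and 3 by DESeq2.

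Neural, adhesion and matrix genes made up the largest number of rising list members, most of them from low levels. This number also follows the length of the lists. In the silent, low and lower middle classes 22.7%, 59.6% and 38.0% were called higher, against 62.8%, 84.7% and 53.7% of developmental regulators. In the upper middle and high classes the shares were 17.8% and 13.8%, against 7.69% and 7.69%. Axon guidance genes were called higher in 41 of 71 (median 0.81), potassium, sodium and calcium channel genes in 56 of 139 (median 0.83), neurotransmitter receptor genes in 39 of 99 (median 0.77) and collagens and laminins in 30 of 55 (median 0.87), with 1, 3, 2 and 1 called lower. The channel list holds 3 opposite-strand RNAs, Kcnd3os, Kcnmb4os1 and Kcnmb4os2, and without them 55 of 136 were called higher (median 0.80). Channel genes called lower numbered 10 on the TMM scale, 8 with the replicate block and 1 without untreated replicate 1. Ephb1, an ephrin receptor of axon guidance, had 99.8, 75.4 and 50.7 in the untreated libraries and 1420.1, 1115 and 1307 after OHT (log2 change 4.12, SE 0.26, adjusted p = 7.57e-18). Kcnd3, a potassium channel of heart and neurons, rose by 4.49 on the log2 scale. The sodium channel gene Scn9a was the largest fall among channels, at 289, 139 and 194 in the untreated libraries and 63.3, 37 and 60.2 after OHT (log2 change -1.91). Adra1a, an adrenergic receptor gene, had 3 reads in the untreated libraries together and 208 after OHT, a ratio of 65.6 with a 95% counting interval of 22.1 to 321. The dopamine receptor gene Drd2 had 50.6, 77 and 68.5 in the untreated libraries and 30.7, 27.8 and 31.4 after OHT.

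Cadherins and protocadherins were called higher in 28 of 71, and in 46 without untreated replicate 1. None was lower by limma on the spike-in scale without a replicate block. DESeq2 and edgeR each called 1 lower, and limma 2 on the TMM scale or with the replicate block. The 36 clustered protocadherins, whose gene bodies overlap and share reads, gave 9 of the 28 calls higher, and 19 came from the other 35 genes. Cdh11, a mesenchymal cadherin, had 55.1, 10.8 and 8.46 in the untreated libraries and 427, 376 and 284 after OHT (log2 change 4.28, SE 0.41, adjusted p = 4.11e-12). Col25a1, a transmembrane collagen of neurons, rose by 3.64, and Col6a5 had 128, 112 and 76.1 in the untreated libraries and 63.3, 38.9 and 45.4 after OHT. Keratins and claudins had 8 of 59 called higher (median 0.16), near the 13.0% of all symbols, with Cldn11 of myelin and testis barriers rising by 2.93. This nearness rests on the silent members, 33 of the 59. Those 8 calls came from 30 members that passed the filter on reads, beside 15.9% called higher of all symbols tested. The median of the keratin and claudin list was 0.50 without untreated replicate 1 and 0.084 on the TMM scale. The calls lower of Drd2 and Col6a5 were each lost when any of several single libraries was left out.

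Markers of ESCs and of cells that could arise from them moved in different directions. Of 21 pluripotency factors in the table, 8 were called lower and 1 higher (median -0.47), and the median level went from 279 to 218 normalised reads per kb. Without untreated replicate 1 the list median was -0.25, with 8 called lower and 2 higher. Beside Klf2 and Sox2, Nr0b1, the gene of the nuclear receptor DAX1, had 615, 446 and 688 in the untreated libraries and 261, 274 and 291 after OHT (log2 change -1.06, SE 0.26, adjusted p = 0.00172), and Utf1, an ESC chromatin factor, had 2203, 1498 and 1558 in the untreated libraries and 1061, 992 and 947 after OHT (log2 change -0.79, SE 0.22, adjusted p = 0.00643). The 1 call higher was Dppa2, an ESC chromatin protein, with 784, 629.5 and 501 in the untreated libraries and 1096, 1046 and 1141 after OHT (log2 change 0.80), and it was lost without untreated replicate 3, OHT replicate 1 or OHT replicate 3. Formative and primed epiblast genes had 4 of 15 higher and 2 lower, with 7 higher without untreated replicate 1, 2 higher by DESeq2 and 4 lower on the TMM scale. Of these Sox3, a neural SoxB factor, rose by 2.57 on the log2 scale. Summed over the list, the normalised read counts of pluripotency factors were 140573, 96682 and 107728 untreated and 86964, 85560.2 and 97909 after OHT, and the most abundant was Tdgf1. These sums overlapped between groups, OHT replicate 3 lying above untreated replicate 2.

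Among lineage markers, 10 of 20 endoderm, 9 of 15 mesoderm, 10 of 17 neural progenitor and 7 of 13 trophoblast markers were called higher, with 1, 0, 1 and 1 lower. The trophoblast count was 4 with DESeq2 and 4 with a pseudocount of 0.1. Their medians were 1.09, 1.74, 1.28 and 0.98. Gata6, a founder factor of primitive endoderm, had 262, 128 and 79.5 in the untreated libraries and 1361, 1029 and 914 after OHT (log2 change 2.96, SE 0.32, adjusted p = 1.2e-10). Foxa1, a forkhead factor of definitive endoderm, rose by 3.48. Cubn, an endocytic receptor of visceral endoderm, had 1539, 1019.7 and 235 in the untreated libraries and 166, 104 and 58.4 after OHT and a log2 change of -2.83, and Ttr, a secreted product of visceral endoderm and liver, was at 0 in all 6 libraries. So the endoderm list did not move as a unit. Zic1, a factor of the neural plate, rose by 5.35, while Tubb3, a tubulin of neurons, had 748, 526 and 519 in the untreated libraries and 396, 310.1 and 376 after OHT (log2 change -0.71). The trophoblast factor Tfap2c had 1414, 1618 and 1269 in the untreated libraries and 948, 930.2 and 842 after OHT and was the 1 trophoblast marker called lower. The calls of Tubb3 and Tfap2c were lost on leaving out any of several single libraries.

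Summed normalised read counts of the endoderm list were 38130.1, 22594 and 18164 untreated and 49747, 43008 and 38674 after OHT, with Lamb1 the most abundant. Those of the mesoderm list were 1126, 526 and 460.0 untreated and 2737, 1988 and 1941 after OHT, with Pdgfra the most abundant, and those of the neural progenitor list 4916, 3029 and 2994 untreated and 6517, 5517 and 6179 after OHT, with Map2. Each of these 3 sums was higher in every OHT library than in any untreated one. Trophoblast sums were 3852, 2873 and 2621 untreated and 4823, 3886 and 3979 after OHT, led by Tfap2c, with untreated replicate 1 close to the lowest OHT value. Fibroblast and smooth muscle markers had 3 of 14 called higher and 2 lower, and none lower without untreated replicate 1. Prrx1, a mesenchymal homeobox factor, rose by 4.84, and the intermediate filament gene Vim had 3091, 1119.7 and 1407 in the untreated libraries and 1083, 766 and 817 after OHT and a log2 change of -0.95, a call lost without untreated replicate 1 and with DESeq2. Their sums, led by Fn1, were 83111, 67906 and 68315 untreated and 65752, 76434 and 74634 after OHT, which overlapped. Two-cell stage genes rose in 3 of 5 and in all 5 without untreated replicate 1, all of the Pramel and Pramef families, with Pramel6 at 5.96, 6.16 and 5.07 in the untreated libraries and 94, 68.5 and 63.7 after OHT. Whether cells of these lineages were more frequent was not tested.

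Germline genes, which are normally expressed in germ cells, rose in 18 of 31 with none lower (median 1.09). On the TMM scale 1 was lower. Ddx4, the RNA helicase VASA of germ cells, had 639, 526 and 449.9 in the untreated libraries and 2528, 2576 and 2571 after OHT (log2 change 2.26, SE 0.23, adjusted p = 2.32e-11). The germ cell genes Dazl, an RNA-binding protein, and Mael, of the piRNA pathway, rose by 1.30 and 2.20 on the log2 scale. Meiosis genes rose in 8 of 20 with 1 lower, 4 lower on the TMM scale and 3 by DESeq2. Mei1, needed for meiotic breaks, had 153, 46.2 and 98.1 in the untreated libraries and 826, 578 and 807 after OHT (log2 change 3.02), and Meiob, a single-strand DNA binding protein of meiosis, had 212, 75.4 and 135 in the untreated libraries and 73.2, 55.5 and 61.1 after OHT, a call lower that was lost on leaving out any of 4 single libraries. By level, 11 of 19 low, 10 of 17 lower middle and 5 of 9 upper middle germline and meiosis genes were called higher, against 38.7%, 14.6% and 3.46% of all symbols of those classes, and 0 of 3 silent ones.

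Some genes of PRC1 subunits were themselves part of the response. PRC1 subunit genes had 8 of 26 called higher and 2 lower (median 0.31). The list median was 0.48 without untreated replicate 1 and 0.19 on the TMM scale. Cbx8, a chromodomain subunit of canonical PRC1 that is scarce in ESCs, had 11.9, 8.47 and 13.5 in the untreated libraries and 108, 58.3 and 105 after OHT (log2 change 2.86, SE 0.49, adjusted p = 5.69e-06). Bmi1, also called Pcgf4, had 161, 98.5 and 154 in the untreated libraries and 760.2, 703 and 728 after OHT (log2 change 2.43, SE 0.28, adjusted p = 5.64e-10), and Bcor, a corepressor of the PCGF1 variant complex, had 1071, 817 and 859 in the untreated libraries and 4136, 3878 and 3576 after OHT (log2 change 2.08, SE 0.22, adjusted p = 5.49e-11). In all these genes the lowest OHT value was above the highest untreated one, as the rule that chose Cbx8 required. The 2 subunit genes called lower were Phc1 and Cbx7. Phc1, the polyhomeotic subunit, had 13454, 7361 and 9113 in the untreated libraries and 3477, 3166 and 3457 after OHT (log2 change -1.52, SE 0.21, adjusted p = 1.15e-07), and Cbx7, the main ESC chromodomain subunit, had 6526, 4476 and 4438 in the untreated libraries and 3480.2, 2978 and 3329 after OHT (log2 change -0.64, SE 0.21, adjusted p = 0.0255), a call lost without untreated replicate 1, OHT replicate 2 or OHT replicate 3.

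Of 11 PRC2 subunit genes 1 was called, Jarid2, an accessory subunit that binds ubiquitylated H2A, with 22780.1, 23484 and 13154 in the untreated libraries and 35503, 27930.4 and 31846 after OHT and a log2 change of 0.72, and this call was lost without untreated replicate 3 or OHT replicate 1. The core subunits Ezh2, Eed and Suz12 had log2 changes of 0.036, 0.12 and -0.034 and were not called. Among trithorax and H3K27 demethylase genes 1 of 16 was called, Smarca2, the BRM ATPase of SWI/SNF complexes, with 153, 78.5 and 60.9 in the untreated libraries and 472, 357 and 386 after OHT and a log2 change of 2.14. DNA methylation genes gave 1 call each way, with none higher on the TMM scale or by DESeq2. The methyltransferase gene Dnmt3b rose by 0.68, a call lost on leaving out any of 4 single libraries, and Tet2, which oxidises methylcytosine, had 7330.2, 3925 and 4556 in the untreated libraries and 2828, 1936 and 2531 after OHT and a log2 change of -1.08. Of 9 core and linker histone genes only Hist1h2aa was called, higher by 1.49.

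**Figure D5:**
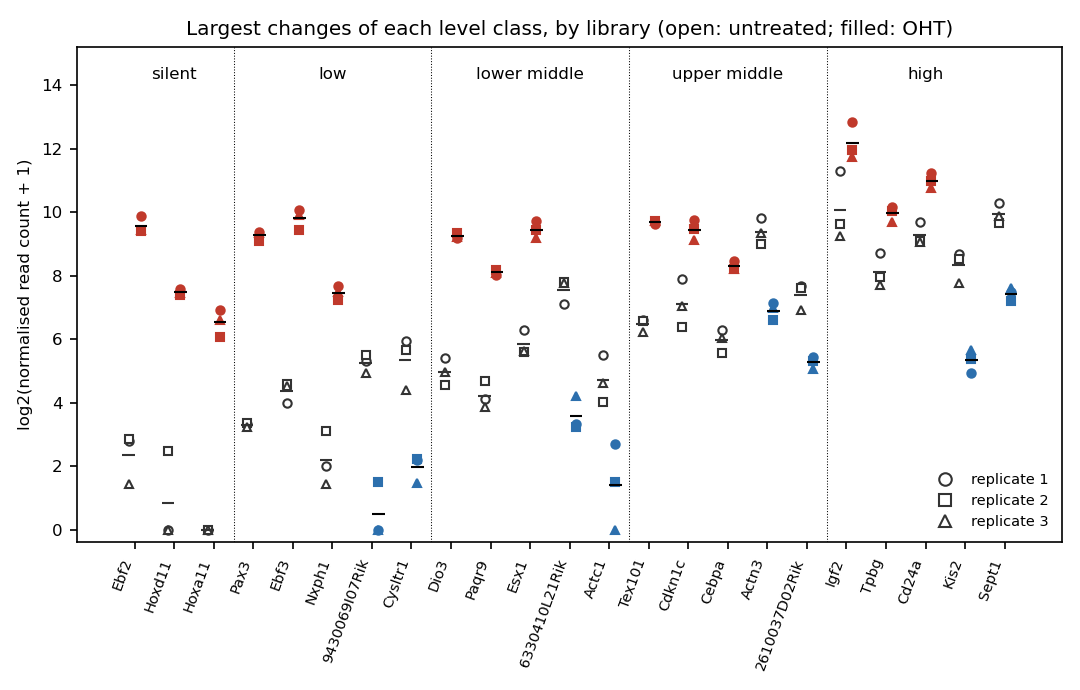
Log2(normalised read count + 1) (vertical axis) of the genes with the largest changes in each untreated level class (horizontal axis), 1 point per library with open symbols for untreated and filled ones for OHT, and lines at the group means. The open and filled points do not overlap for any gene shown, from Ebf2 at the left to Sept1 at the right, because the genes were chosen to have separated groups.

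Genes of growth and metabolism were mostly not called and the balance of those called depended on the scale and on 1 library. Over the 11 lists 14 members were called higher and 30 lower, against 27 higher and 14 lower without untreated replicate 1, 14 and 48 on the TMM scale, and 16 and 49 with both changes together. Among 71 cytosolic and 68 mitochondrial ribosomal protein genes limma called none on the spike-in scale with all libraries and no replicate block. Their medians were -0.089 and 0.0036. On the TMM scale or with the replicate block 1 cytosolic gene was lower, and 1 mitochondrial gene was higher without untreated replicate 1. Without adjustment 1 cytosolic and 0 mitochondrial genes had a p under 0.05 in limma, DESeq2 called 1 and 0 lower, and edgeR called none. The cytosolic median was 0.098 without untreated replicate 1 and -0.21 on the TMM scale, and the mitochondrial one 0.23 and -0.12. Glycolysis genes were called lower in 9 of 18 and higher in none (median -0.66), and the median level went from 384 to 238 normalised reads per kb. Pfkp, a phosphofructokinase, had 16644, 8425 and 13048 in the untreated libraries and 6503, 4916 and 7282 after OHT (log2 change -0.99, SE 0.22, adjusted p = 0.000401). Pdk1, a kinase that restrains pyruvate oxidation, had 5717, 3864 and 3908 in the untreated libraries and 2614, 2135 and 2414 after OHT (log2 change -0.89, SE 0.21, adjusted p = 0.00103). Untreated replicate 1 was the highest library for both genes. Tpi1, triose phosphate isomerase, had 5336, 1795 and 2911 in the untreated libraries and 2363, 1206 and 1289 after OHT, so that its groups overlapped. DESeq2 on the recovered reads called 5 glycolysis genes lower and edgeR 10, and the replicate block gave 14. Without untreated replicate 1 the count of glycolysis genes called lower was 3 and the list median -0.44. When the TMM scale was used as well, 11 were called lower and the median was -0.73.

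Genes of serine synthesis and targets of ATF4, the transcription factor of the amino acid stress response, were called lower in 8 of 17 and higher in 1 (median -0.66). Chac1, which degrades glutathione, had 447, 410.2 and 454 in the untreated libraries and 61.5, 75.9 and 198 after OHT (log2 change -2.15, SE 0.30, adjusted p = 8.18e-08). Ddit3, the gene of CHOP, had 779, 366 and 545 in the untreated libraries and 119, 155 and 163 after OHT (log2 change -1.89, SE 0.28, adjusted p = 5.37e-07). No OHT value of these genes reached the lowest untreated one. The 1 call higher, Atf3, had 349, 254 and 337 in the untreated libraries and 521, 461 and 553 after OHT and was lost on leaving out any of 5 single libraries. Aminoacyl-tRNA synthetases had 3 of 33 lower, led by Sars at 3803, 2387 and 2924 in the untreated libraries and 1459, 1346 and 1636 after OHT (log2 change -1.02). Cholesterol synthesis genes had 4 of 22 lower and none higher, 1 each way without untreated replicate 1, 2 lower by DESeq2 or with a pseudocount of 0.1, and 8 lower on the TMM scale. For the synthetases 7 were lower on the TMM scale and 5 by DESeq2 or edgeR. Msmo1, a sterol demethylating enzyme, had 5819.8, 3036 and 4867 in the untreated libraries and 2413, 1885 and 2708 after OHT (log2 change -0.93).

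Cell cycle genes gave few calls in the list of cyclins and replication genes, but not in that of CDK inhibitors. Cyclins and replication genes had 3 of 65 higher and 2 lower, with Ccnb3, a meiotic cyclin, rising by 3.31 and E2f1 at 1378, 788 and 1024 in the untreated libraries and 648, 616 and 607 after OHT, a call lower that was lost on leaving out any of 5 single libraries; 6 were higher and 0 lower without untreated replicate 1. CDK inhibitors, which hold back the cell cycle, had 4 of 8 higher and 1 lower. Cdkn2a, the locus of p16 and p19ARF, had 99.8, 45.4 and 42.3 in the untreated libraries and 474, 361 and 363 after OHT (log2 change 2.76, SE 0.33, adjusted p = 3.11e-09). Cdkn1c was described above, and Cdkn1b had 1554, 742 and 944 in the untreated libraries and 598, 570.2 and 534 after OHT, a call lower that was lost without untreated replicate 1. Of p53 targets 4 of 25 were called higher and 1 lower, and Cdkn1a, the p21 gene, was not called at a log2 change of 0.12. Ddit4l rose by 1.19 and Gadd45a had 1028, 948 and 700.1 in the untreated libraries and 563, 489 and 505 after OHT, a call lower lost on leaving out any of 3 single libraries. p53 targets had 8 higher without untreated replicate 1. Mitochondrial respiratory chain and ATP synthase genes had none of 89 higher and 2 lower. The number higher was 1 on the TMM scale or with the replicate block. Without untreated replicate 1 it was 2, with none lower. Atp5s had a log2 change of -0.88 and was called lower, but not without untreated replicate 1. Proteasome subunits had 2 of 37 higher, among them Psmd14 by 0.63, a call lost on the TMM scale and on leaving out any of 4 single libraries.

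Imprinted genes rose in 12 of 29 with 2 lower (median 0.49). Dlk1, the paternally expressed Notch-related ligand, had 206, 109 and 108 in the untreated libraries and 1091, 961 and 691 after OHT (log2 change 2.73, SE 0.29, adjusted p = 1.27e-10). Grb10, an adaptor of insulin signalling, had 682, 301 and 323 in the untreated libraries and 3239.7, 2212 and 2231 after OHT (log2 change 2.63, SE 0.24, adjusted p = 1.88e-12), and H19, the noncoding neighbour of Igf2, had 124, 23.1 and 66 in the untreated libraries and 289, 139 and 206 after OHT (log2 change 1.79, SE 0.35, adjusted p = 8.29e-05). With Igf2, Dio3 and Cdkn1c, these genes include both maternally and paternally expressed ones. Snrpn had 2310.3, 2056 and 1531 in the untreated libraries and 969, 848 and 935 after OHT and a log2 change of -1.08. Whether the second allele was expressed was not measured.

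Few olfactory and vomeronasal receptor genes were called. Of 457 olfactory receptor genes 453 were silent before OHT, 6 passed the filter and 1 was called higher, Olfr376, with 2.98, 1.54 and 0 in the untreated libraries and 28.9, 69.4 and 54.1 after OHT (log2 change 4.50). Of 47 vomeronasal receptor genes 2 passed the filter, and limma, DESeq2 and edgeR called none on the spike-in scale. In limma 1 had an unadjusted p under 0.05, and 2 were called lower on the TMM scale. Of 44 defensin and keratin-associated genes 4 passed the filter and 2 were called higher. This count was 1 without untreated replicate 1, by DESeq2 or by edgeR. Interferon and MHC class I genes had 5 of 32 higher (2 with DESeq2 and 8 with the replicate block), with B2m, the light chain of MHC class I, at 885, 558 and 559 in the untreated libraries and 1359, 1564 and 1037 after OHT (log2 change 1.00). Numbered zinc finger genes, many of them KRAB repressors, had 19 of 298 higher and 11 lower, at 6.38% and 3.69% beside the 13.0% and 2.49% of all symbols. Zfp385b rose by 4.05 and Zfp763 had 752, 487 and 474 in the untreated libraries and 310.1, 246 and 312 after OHT, a log2 change of -0.95. On the TMM scale 20 were called higher and 34 lower. Without untreated replicate 1 the counts were 28 and 4.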

How the data were processed

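RNA was sequenced from PRC1CKO and PRC1CPM ESCs, untreated or after OHT, with 3 libraries in each of 4 conditions, after rRNA depletion and with a directional kit. Per the study's methods, reads mapping to rDNA were removed with Bowtie2, the rest were aligned to mm10 joined with dm6, first by STAR and then by Bowtie2, and unique alignments without PCR duplicates were counted over gene bodies, introns included. Whether counting used strand is not given in the sources used here, so reads of overlapping and antisense genes may be shared. The signal values the authors deposited are these counts divided by 1 DESeq2 size factor per library, taken from Drosophila gene reads and corrected with the matched genomic DNA libraries, so the scale of every gene rests on the spike-in. The authors' table also holds DESeq2 log2 fold changes and adjusted p-values for each line, between lines and for the interaction, and a second file lists transcripts chosen from the comparison of the lines; none of these were used.

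Dividing each column by its smallest step gave whole reads for 100% of values in every library (tolerance 0.02). A transcript was tested when 3 or more of the 12 libraries held at least 10 reads, and tests were made with limma 3.58.1 in R 4.3.3 on log2(normalised read count + 1), with a trended variance, 1 mean for each of the 4 conditions and no replicate block. The log2 change understates low genes because of the pseudocount of 1. Self-tests on simulated counts for 16940 genes recovered 84 of 100 genes changed 2-fold and 98 of 100 changed 4-fold, with 3 false calls. The simulation used a dispersion of 0.02 for every gene and no shift of any library. Untreated replicate 1 stood apart in the real data, so these rates need not hold for them. DESeq2 1.42.0 and edgeR 4.0.16 were run on the recovered reads as alternatives. Start windows were read from the GRCm38 sequence, and 20450 transcripts were matched to a RefSeq product name. Intervals cover counting error only.

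The genes described in full were Ring1 and Rnf2, the 3 largest increases and 2 largest decreases of each level class, and the largest called change of each list with the largest in the other direction, each with all differences between groups of 1 sign and at least 20 reads in every library of the higher group (93 genes). One gene under this rule and one start window are not reported here. Other genes were chosen as examples after their values were seen. The members, lists and tests were chosen with earlier results of these data known, and 1 noncoding RNA was dropped from the channel list after its value was seen, while 3 opposite-strand RNAs stayed in it. Genomic DNA libraries were not analysed here.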

Additional observations from a re-analysis of the deposited data

Results flagged for a closer look

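Ebf2 was the 1 of the 93 genes under the naming rule whose response to OHT differed between the lines by a test of the difference itself, added after the data were seen. The increase in PRC1CKO exceeded that in PRC1CPM by 3.48 on the log2 scale (SE 0.54, limma adjusted p = 0.000732). In PRC1CPM the normalised read counts of Ebf2 were 15.3, 32.04 and 21.7 untreated and 397, 319 and 226 after OHT, so that the untreated level was above that of PRC1CKO and the OHT level below it, and the PRC1CKO increase was present in 3 of 3 OHT libraries. Mecom and both transcripts of Grb10 were the others at an adjusted p under 0.05, with differences of 2.44, 1.75 and 1.77. Untreated Grb10 levels differed between the lines, at 682, 301 and 323 in PRC1CKO and 4071, 3837 and 2464 in PRC1CPM for one of its transcripts, and the part of this in its difference was not tested.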

How the results depend on the processing

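The number of transcripts called higher stayed within 1.5 times 2787 under all alternatives but a limma test against a 1.5-fold change, which gave 1436; the number called lower did not stay near 524. It was 1133 with TMM in place of the spike-in scale, 1070 with TMM and without untreated replicate 1, 346 with no filter on low counts, 823 with the replicate block over the 12 libraries, 271 at a change above 2-fold, 304 at an adjusted p under 0.01, 84 in the limma test against a 1.5-fold change, and 326 to 674 when single libraries were left out. The median change of all transcripts was -0.0019 with TMM, -0.00088 with TMM and without untreated replicate 1, and 0.0175 to 0.294 with single libraries left out.

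By level, the replicate block raised the share called lower to 4.88% in the low, 5.42% in the lower middle and 4.37% in the upper middle class, and the share called higher to 5.13% in the upper middle class. TMM raised the share called lower to 5.28%, 7.44%, 6.92% and 8.10% from the low to the high class and turned the upper middle median to -0.093, with medians of 0.050 and -0.15 in the lower middle and high classes. With levels per gene and not per kb, 29.8% of the low and 19.5% of the lower middle class were called higher. The upper middle and high classes then had 7.17% and 3.48% called higher. Leaving out single libraries gave 7.80% to 23.4% called higher in the lower middle, 1.91% to 8.52% in the upper middle and 0.785% to 5.79% in the high class, and 0.0231% to 0.0692%, 1.57% to 2.70%, 1.84% to 3.63%, 1.87% to 3.85% and 2.45% to 6.28% called lower from the silent to the high class. Medians then ran from -0.079 to 0.19 in the upper middle and from -0.14 to 0.15 in the high class. The shares called higher in the silent and low classes kept within 1.5 times their values under every alternative run. The cause of these shifts was not tested.

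Of the 91 called genes under the naming rule, 62 kept their call in every alternative and none changed sign; Igf2 lost its call with no filter on low counts. Same-numbered libraries correlated in their deviations from the group means at 0.179, 0.0988 and 0.148, and each library correlated best with its own number, a hint from the data only; the numbers were not taken as pairs. The block gave 3435 called higher. With 3 libraries a group and low genes at a few reads, small changes of scarce transcripts may have been missed. Detection by level was not tested.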

Other observations

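By RefSeq product name, homeobox genes were called higher in 119 of 192 and lower in 2, while ribosomal protein genes had 1 of 162 called each way and mitochondrial genes 6 of 270 higher and 3 lower. Kinase genes had 90 of 669 higher, near the 13.0% of all symbols, and solute carriers and transporters 81 of 389. Receptor genes had 267 of 1549 higher, and 1 of the 459 named as olfactory receptors. Genes named only as RIKEN cDNA or predicted genes had 83 of 1866 higher and 43 lower.

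Of the noncoding transcripts tested, 12.1% were called higher and 5.66% lower, against 16.2% and 2.87% of mRNAs. The share called higher by chromosome ran from 10.1% on chromosome 17 to 22.1% on chromosome 6, and 21.1% on X, where 5.99% were called lower. The differences between these shares were not tested.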
